A study of Mus musculus with 8 samples.

Results

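Purine synthesis enzyme genes were followed in RNA of mouse peripheral retina, microdissected at postnatal day 12. The members are 10 genes taken by symbol from the 23284 genes in the files: Prps1 and Prps2, which code for the phosphoribosyl pyrophosphate (PRPP) synthetases; Ppat, Gart, Pfas, Paics, Adsl and Atic, which code for the enzymes of the de novo pathway; and Impdh1 and Impdh2, which code for the IMP dehydrogenases. The libraries fall into 2 groups of 4. In the group called TET-MYCN here, the genotype label is Rb null with TET-MYCN: Cre recombinase is under the alpha enhancer of Pax6, and Rosa26LSL-RTTA (a Cre-dependent tetracycline transactivator) and TRE-MYCN (a MYCN transgene under a tetracycline-response promoter) are carried. The group called Rb-null has the same Cre with floxed alleles of the retinoblastoma gene (Rblox/lox) and no MYCN transgene in its label. The genotype label and the series title give Rb deletion for both groups, while the design text does not repeat the floxed allele for the TET-MYCN group. The labels used here name no doxycycline. Cre under this enhancer acts in the peripheral retina and need not reach every cell of the tissue. Whether each library is 1 animal is not stated, so the p-values below reflect spread between libraries that may include technical spread.

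Gene counts came to 14872131 to 22873979 per library, and the 10 members had 284 to 8371 reads each in a library. The genes altered by the genotypes checked the labels little. Mouse Mycn had 201, 219, 272 and 276 CPM (counts scaled to library size) across TET-MYCN libraries 1 to 4, against 246, 339, 108 and 232 CPM in Rb-null libraries 1 to 4. Rb1 had 151, 179, 164 and 123 CPM in the TET-MYCN libraries, against 184, 174, 147 and 138 CPM in the Rb-null libraries. Groups overlapped for both genes, transgene reads need not be counted at mouse Mycn, and the reads of a floxed Rb1 allele can remain outside the deleted part, so every direction below rests on the labels. Rod transcripts such as Sag and Pde6b were present in all 8 libraries. Libraries also differed in lens crystallin reads, with a summed level of 8 lens markers of 7.57 to 45.2 CPM in the TET-MYCN libraries and 16.4, 246, 468 and 82.4 CPM in Rb-null libraries 1 to 4.

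The de novo pathway builds the purine ring stepwise on PRPP, a ribose phosphate that PRPP synthetase makes from ribose 5-phosphate and ATP, and ends in inosine monophosphate (IMP). IMP is then turned into adenine nucleotides, or, through the IMP dehydrogenases, into guanine nucleotides. MYC proteins are known to bind promoters of several of these genes in dividing cells, whereas photoreceptors use large amounts of cyclic GMP for phototransduction and are known for expressing IMPDH1, whose mutations cause a form of human retinitis pigmentosa.

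Promoter windows from RefSeq (build GRCm38.p6, 250 bases before to 50 bases after a start site) were found for 9 of the 10 members, in 10 windows; Pfas is named only. The letters CACGTG, the core E-box that MYC and MAX are known to bind and which read the same on both strands, occurred once in the windows of Atic, Paics and Impdh2, that is in 3 of 9 members with a window (33.3%). Of 32851 windows of the same length in the whole table, 7.15% held these letters, and by gene the share was 8.09%. The first letter of the match lay 7 bases before the start site of Atic, 110 bases before that of Impdh2 and 203 bases before that of Paics. Paics and Ppat lie head to head, with RefSeq start sites 276 bases apart whose transcripts overlap. The match in the Paics window lies downstream of the Ppat start site, beyond the end of the Ppat window, so it was counted for Paics only. The 3 windows with the match are shown because they include the 2 genes whose groups did not overlap, and a window of Impdh1 is shown as the isoenzyme set against Impdh2. Capitals mark CACGTG, and each line runs 5′ to 3′ on the strand of the gene.
Atic, chr1:71556906-71557205 (plus strand): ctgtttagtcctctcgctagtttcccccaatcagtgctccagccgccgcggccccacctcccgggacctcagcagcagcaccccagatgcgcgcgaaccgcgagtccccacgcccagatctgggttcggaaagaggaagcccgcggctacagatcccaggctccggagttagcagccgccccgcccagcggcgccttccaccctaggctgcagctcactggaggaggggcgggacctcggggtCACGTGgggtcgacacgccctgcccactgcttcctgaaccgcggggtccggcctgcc
Paics, chr5:76951052-76951351 (plus strand): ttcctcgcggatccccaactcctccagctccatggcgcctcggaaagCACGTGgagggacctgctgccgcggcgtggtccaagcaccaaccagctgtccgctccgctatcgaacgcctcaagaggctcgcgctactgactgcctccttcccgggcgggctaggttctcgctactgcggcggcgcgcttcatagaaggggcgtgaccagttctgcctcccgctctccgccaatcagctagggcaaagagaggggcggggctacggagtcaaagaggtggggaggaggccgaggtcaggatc
Impdh2, chr9:108560186-108560485 (plus strand): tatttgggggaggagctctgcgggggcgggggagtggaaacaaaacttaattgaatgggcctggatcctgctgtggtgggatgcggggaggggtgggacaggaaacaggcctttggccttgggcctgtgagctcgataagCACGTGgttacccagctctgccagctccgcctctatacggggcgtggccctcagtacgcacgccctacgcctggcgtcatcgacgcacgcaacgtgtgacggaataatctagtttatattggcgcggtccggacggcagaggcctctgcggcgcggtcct
Impdh1, chr6:29216315-29216614 (minus strand): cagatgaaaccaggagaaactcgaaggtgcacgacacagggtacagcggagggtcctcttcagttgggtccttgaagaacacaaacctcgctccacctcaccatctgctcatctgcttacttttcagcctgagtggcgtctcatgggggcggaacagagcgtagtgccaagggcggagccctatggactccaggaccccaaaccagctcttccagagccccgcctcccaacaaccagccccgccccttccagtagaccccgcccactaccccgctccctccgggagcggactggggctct
Neither window of Impdh1 held the letters. The windows of Prps1, Prps2, Ppat, Gart and Adsl also lacked them, and these genes averaged higher in the TET-MYCN libraries, as did the genes with a match. Their log2 fold changes ran from 0.19 (Adsl) to 0.43 (Prps2), against 0.29 (Impdh2) to 0.59 (Atic) for the genes with a match. Whether a match goes with the level was not tested. A match is a description of the sequence and does not show that MYCN was bound there.

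Of the 10 members, 9 averaged higher in the TET-MYCN libraries than in the Rb-null libraries, by 1.14-fold to 1.51-fold, and Impdh1 averaged lower. None of the 10 passed the threshold of the test across all genes (edgeR's quasi-likelihood F test, Benjamini-Hochberg adjusted p under 0.05; lowest adjusted p = 0.165, for Atic). In that test 9 of 15106 genes passed, or 0.0596%, with 0.0530% higher and 0.00662% lower. At an unadjusted p under 0.05 there were 4 members higher and 1 lower, against 8.06% of all genes higher and 7.72% lower. DESeq2 called 1 member, Atic, and 530 of 15105 genes, or 3.51%; limma-voom called 0 members and 0 genes, with 2262 genes at an unadjusted p under 0.05. The median log2 fold change of the members was 0.29, against 0.01 over all genes tested, and a positive value was held by 9 of 10 members and by 52.2% of all genes. For 2 members, Atic and Paics, all 4 TET-MYCN libraries lay above all 4 Rb-null libraries, which was so for 4.36% of all genes, and for 0 members they lay below all 4, which was so for 3.29%.

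**Figure D1:**
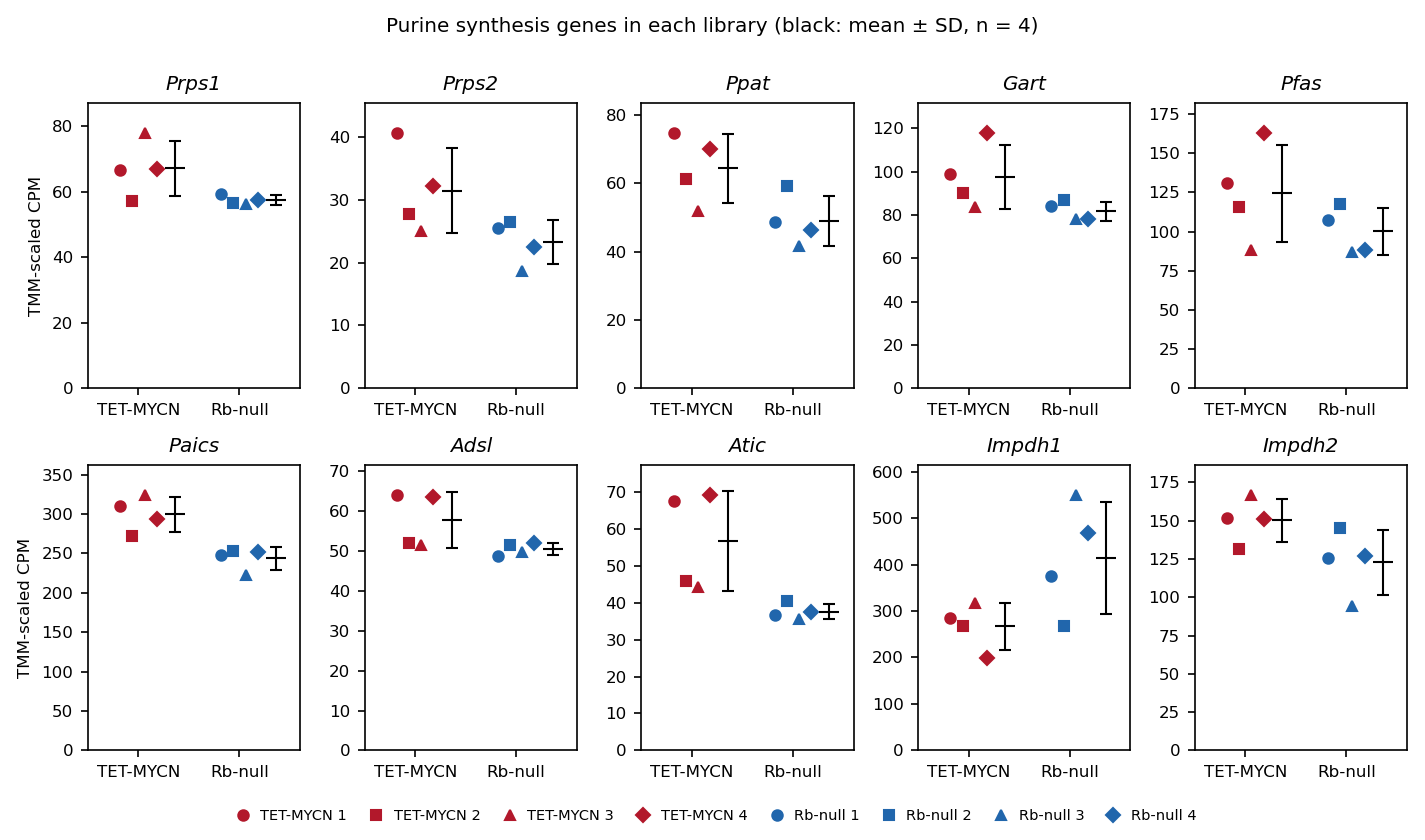
Level of each purine synthesis gene in TMM-scaled CPM (vertical axes start at 0) in the 4 TET-MYCN libraries (red, left) and the 4 Rb-null libraries (blue, right); the symbol shape gives the library number within its group, and black marks give the mean and SD of 4 libraries. The groups are apart for Paics and Atic and overlap for the other 8 genes, and for Impdh1 the Rb-null libraries spread most, from 267 to 549 CPM.

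The PRPP synthetase genes supply the first substrate. Prps1 stood at 66.5, 57.3, 77.8 and 66.8 CPM across TET-MYCN libraries 1 to 4, against 59.4, 56.6, 56.1 and 57.4 CPM in Rb-null libraries 1 to 4. The Rb-null libraries lay within a narrow band, and TET-MYCN 2 lay inside it while the other TET-MYCN libraries lay above it. The log2 fold change was 0.23 ± 0.10 (standard error here and below; adjusted p = 0.326, edgeR's quasi-likelihood test), with a 95% interval of -0.01 to 0.46, and it was 0.15 without TET-MYCN 3. Prps1 has a near copy in the mouse genome, Prps1l3, whose longest open reading frame matched that of Prps1 at 927 of 957 bases. Prps1l3 was counted in every library, at 49.6 to 56.2 CPM in the TET-MYCN libraries and 47.7 to 51.5 CPM in the Rb-null libraries, so the split of reads between the pair is uncertain. A second copy, Prps1l1, had 1 read in all 8 libraries together.

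Prps2, the other PRPP synthetase gene, had the lowest level per length of all members in both groups. It had 40.5, 27.8, 25.1 and 32.2 CPM across TET-MYCN libraries 1 to 4, against 25.5, 26.4, 18.6 and 22.4 CPM in Rb-null libraries 1 to 4. TET-MYCN 1 was the highest library and TET-MYCN 3 lay among the Rb-null libraries, below Rb-null 1 and 2. Its log2 fold change was 0.43 ± 0.17 (adjusted p = 0.271, edgeR), and 0.28 without TET-MYCN 1. Within each library Prps2 had 0.322 to 0.609 reads per Prps1 read in the TET-MYCN group and 0.332 to 0.467 in the Rb-null group, so the balance of the pair overlapped between groups.

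Ppat codes for the amidophosphoribosyltransferase that commits PRPP to the pathway. Its level was 74.6, 61.3, 51.8 and 70.2 CPM across TET-MYCN libraries 1 to 4, against 48.7, 59.2, 41.6 and 46.4 CPM in Rb-null libraries 1 to 4. Only TET-MYCN 3 and Rb-null 2 kept the groups from separating. On the log2 scale the difference was 0.40 ± 0.14 (adjusted p = 0.243, edgeR). Gart, a multifunctional enzyme gene of the early ring steps, had 98.9, 89.96, 83.5 and 118 CPM in the TET-MYCN libraries, against 84.1, 86.9, 78.1 and 78.1 CPM in the Rb-null libraries. Its log2 fold change was 0.25 ± 0.12 (adjusted p = 0.324, edgeR), and 0.15 without TET-MYCN 4, the highest library.

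Pfas, which codes for the glutamine-dependent amidotransferase between the Gart steps, varied most among the TET-MYCN libraries of all members. Its level was 131, 116, 88.1 and 163 CPM across TET-MYCN libraries 1 to 4, against 108, 118, 86.9 and 88.6 CPM in Rb-null libraries 1 to 4. TET-MYCN 1 and 4 were above the Rb-null range, TET-MYCN 4 by far, and TET-MYCN 2 and 3 lay within it. The coefficient of variation was 25.0% in the TET-MYCN group and 14.9% in the Rb-null group. For Pfas the log2 fold change was 0.31 ± 0.18, with a 95% interval of -0.09 to 0.72 (adjusted p = 0.430, edgeR), and 0.16 without TET-MYCN 4.

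Paics, a bifunctional enzyme gene for the carboxylation and aspartate-addition steps, varied least among the TET-MYCN libraries, with a coefficient of variation of 7.36%. It had 309.8, 272, 324 and 293 CPM across TET-MYCN libraries 1 to 4, against 249, 252, 222 and 251 CPM in Rb-null libraries 1 to 4. All 4 TET-MYCN libraries were above all 4 Rb-null libraries, among which Rb-null 3 was lower than the other 3. For Paics the log2 fold change was 0.30 ± 0.10, a 1.23-fold higher level, with a 95% interval of 0.08 to 0.51 (adjusted p = 0.212, edgeR). Since the RefSeq transcripts of Paics and Ppat overlap at their starts on opposite strands, reads from the shared stretch could be assigned only if strand was used in counting, which is not given in the sources used here.

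Adsl codes for adenylosuccinate lyase, which acts both in ring synthesis and in making AMP from IMP. Adsl had 63.9, 51.97, 51.5 and 63.6 CPM across TET-MYCN libraries 1 to 4, against 48.8, 51.5, 49.8 and 52.1 CPM in Rb-null libraries 1 to 4. TET-MYCN 1 and 4 were above all Rb-null libraries, while TET-MYCN 2 and 3 lay among them. The Adsl difference was 0.19 ± 0.10 on the log2 scale (adjusted p = 0.390, edgeR), the smallest size among the members.

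Atic, whose bifunctional product closes the ring to give IMP, had the largest positive value. Atic was at 67.6, 45.96, 44.2 and 68.99 CPM across TET-MYCN libraries 1 to 4, against 36.7, 40.3, 35.7 and 37.4 CPM in Rb-null libraries 1 to 4. The groups did not overlap, but TET-MYCN 1 and 4 were well above TET-MYCN 2 and 3, which lay just over the Rb-null range. On the log2 scale Atic differed by 0.59 ± 0.16, a 1.51-fold higher level, with a 95% interval of 0.24 to 0.95 (adjusted p = 0.165, edgeR). With DESeq2 it was 0.59 ± 0.18 (adjusted p = 0.0369), and over all 18 alternatives the adjusted p ran from 0.0369 to 0.546.

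**Figure D2:**
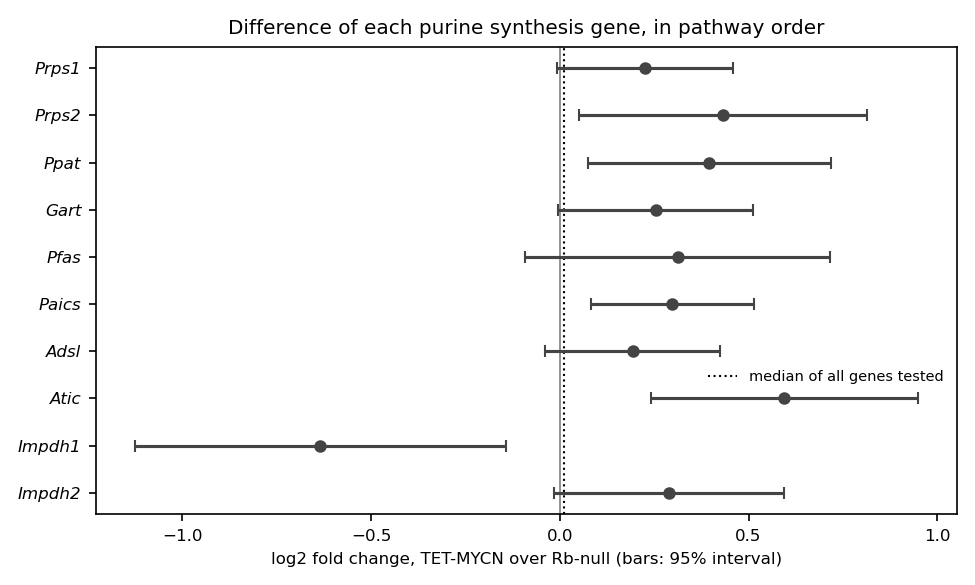
Log2 fold change of TET-MYCN over Rb-null for the 10 genes, listed from PRPP synthesis down to IMP dehydrogenation; points are edgeR estimates, bars their 95% intervals without adjustment, and the dotted line the median of all genes tested (0.01). All points but that of Impdh1 (-0.63) lie to the right of 0, between 0.19 for Adsl and 0.59 for Atic.

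Summed over Ppat, Gart, Pfas, Paics, Adsl and Atic, transcript levels were 746, 637, 643 and 776 CPM across TET-MYCN libraries 1 to 4, against 575, 608, 514 and 554 CPM in Rb-null libraries 1 to 4. The means were 701 ± 71.0 CPM in the TET-MYCN group and 563 ± 39.3 CPM in the Rb-null group (SD, n = 4 each). The members did not follow 1 common order within the TET-MYCN group. Of the 9 members other than Impdh1, TET-MYCN 1, 3 and 4 each held the highest level for 3: TET-MYCN 1 for Prps2, Ppat and Adsl, TET-MYCN 4 for Gart, Pfas and Atic, and TET-MYCN 3 for Prps1, Paics and Impdh2. TET-MYCN 3 was at the same time the lowest of its group for 6 of the 9. Those 6 had the longest merged exons of the members, from 2845 bases (Atic) to 6373 bases (Pfas). Impdh2, Prps1 and Paics had 1858, 1965 and 2486 bases, and Impdh1, also highest of its group in TET-MYCN 3, had 2733 bases. This library also had the most multiply aligned reads, 12.8%. The part of transcript length in this order was not tested. Among the Rb-null libraries the order was more uniform, with Rb-null 3 the lowest of all 8 libraries for 8 of the 9 and Rb-null 2 the highest of its group for 7.

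**Figure D3:**
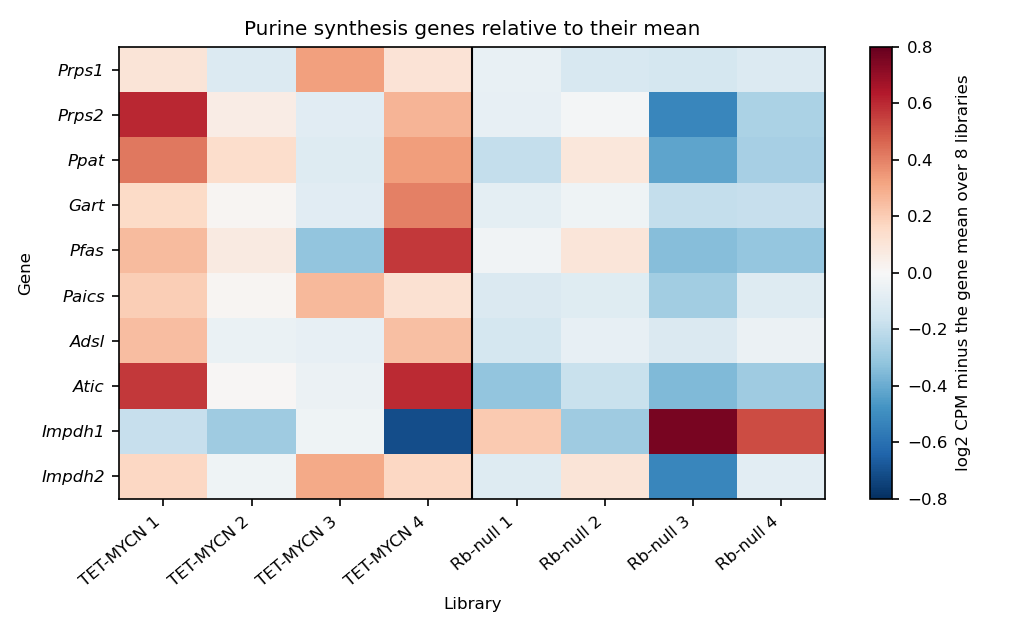
Log2 CPM of each gene minus its own mean over the 8 libraries (red higher, blue lower), with the TET-MYCN libraries left of the black line and the Rb-null libraries right of it. Rb-null 3 is the lowest library for 8 genes and the highest for Impdh1, and TET-MYCN 4 is the highest for Gart, Pfas and Atic and the lowest for Impdh1.

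Rb-null 3 was also the library with the lowest level of cell cycle transcripts. The summed level of 10 markers of cycling cells was 2543, 2875, 3111 and 3136 CPM across TET-MYCN libraries 1 to 4, against 2806, 3028, 1542 and 2176 CPM in Rb-null libraries 1 to 4. Their log2 fold changes were positive for all 10 (median 0.38), 0 passed the test, and none was at 0 in any library. Among progenitor markers 7 of 9 were positive, with a median of 0.24 and a summed level of 1307 to 1588 CPM in the TET-MYCN libraries and 1409 to 1616 CPM in the Rb-null libraries. The part of either cell population in the purine gene values was not tested. In bulk tissue, fewer cells of a type and less RNA per cell cannot be told apart. Without Rb-null 3 the median log2 fold change of the members was 0.24, with 9 of 10 positive.

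Set per length, as CPM per kilobase of merged exons (GENCODE M21), the order of levels was led by Paics and the IMP dehydrogenases in both groups. In the TET-MYCN group Paics had 121 ± 8.88, Impdh1 97.7 ± 18.4 and Impdh2 80.8 ± 7.64 CPM per kilobase (SD, n = 4). In the Rb-null group Impdh1 had 152 ± 44.3, Paics 98.0 ± 5.78 and Impdh2 66.1 ± 11.4 CPM per kilobase (SD, n = 4). Prps1 came next, at 34.2 ± 4.27 CPM per kilobase in the TET-MYCN group and 29.2 ± 0.749 in the Rb-null group, and Prps2 was last, at 8.49 ± 1.83 and 6.28 ± 0.955 in the same groups. Between them, Gart, Atic, Pfas, Ppat and Adsl had 15.6 to 24.5 CPM per kilobase in the TET-MYCN group and 12.3 to 20.5 in the Rb-null group, and Atic, Pfas, Ppat and Adsl could not be ordered beyond their SDs.

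The IMP dehydrogenase genes had log2 fold changes of opposite sign. Impdh1, the isoenzyme gene that photoreceptors are known to use, stood at 286, 267.2, 317 and 198 CPM across TET-MYCN libraries 1 to 4, against 376, 267.1, 549 and 467 CPM in Rb-null libraries 1 to 4. Rb-null 1, 3 and 4 were above every TET-MYCN library, and Rb-null 2 matched TET-MYCN 2. On the log2 scale Impdh1 differed by -0.63 ± 0.22, a level 0.644 times that of the Rb-null group, with a 95% interval of -1.13 to -0.14 (adjusted p = 0.229, edgeR's quasi-likelihood test). It was -0.47 without Rb-null 3 and -0.80 without Rb-null 2.

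Impdh2, the isoenzyme gene known for its use in dividing cells, stood at 151, 132, 166 and 151 CPM across TET-MYCN libraries 1 to 4, against 125, 145, 94.0 and 127 CPM in Rb-null libraries 1 to 4. TET-MYCN 2 was below Rb-null 2, and the other TET-MYCN libraries were above all Rb-null ones. The log2 fold change was 0.29 ± 0.14, with a 95% interval of -0.02 to 0.59 (adjusted p = 0.338, edgeR), and it was 0.18 without Rb-null 3. Summed, the pair had 417 ± 57.2 CPM in the TET-MYCN group and 538 ± 102 CPM in the Rb-null group (SD, n = 4 each).

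The ratio of Impdh1 to Impdh2 reads within a library does not depend on depth. It was 1.89, 2.03, 1.91 and 1.31 in TET-MYCN libraries 1 to 4, against 2.998, 1.84, 5.83 and 3.67 in Rb-null libraries 1 to 4. Rb-null 1, 3 and 4 were above all TET-MYCN libraries, and Rb-null 2 lay below TET-MYCN 1, 2 and 3. On the log2 scale the ratio averaged 0.82 ± 0.28 in the TET-MYCN group and 1.72 ± 0.69 in the Rb-null group (SD, n = 4 each), a difference of -0.91 ± 0.37 (standard error). The difference did not pass the test (p = 0.114, two-sided exact permutation test over 70 arrangements, whose smallest possible p is 0.0286). Without Rb-null 2 the difference was -1.19, with p = 0.0286, the smallest that the exact permutation test of the remaining libraries can give. Corrected for length, Impdh1 made up 56.2%, 57.9%, 56.5% and 47.2% of the pair in TET-MYCN libraries 1 to 4, against 67.1%, 55.6%, 79.9% and 71.4% in Rb-null libraries 1 to 4. These shares are of transcripts of the whole gene, since the counts do not separate the retinal splice forms of Impdh1.

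**Figure D4:**
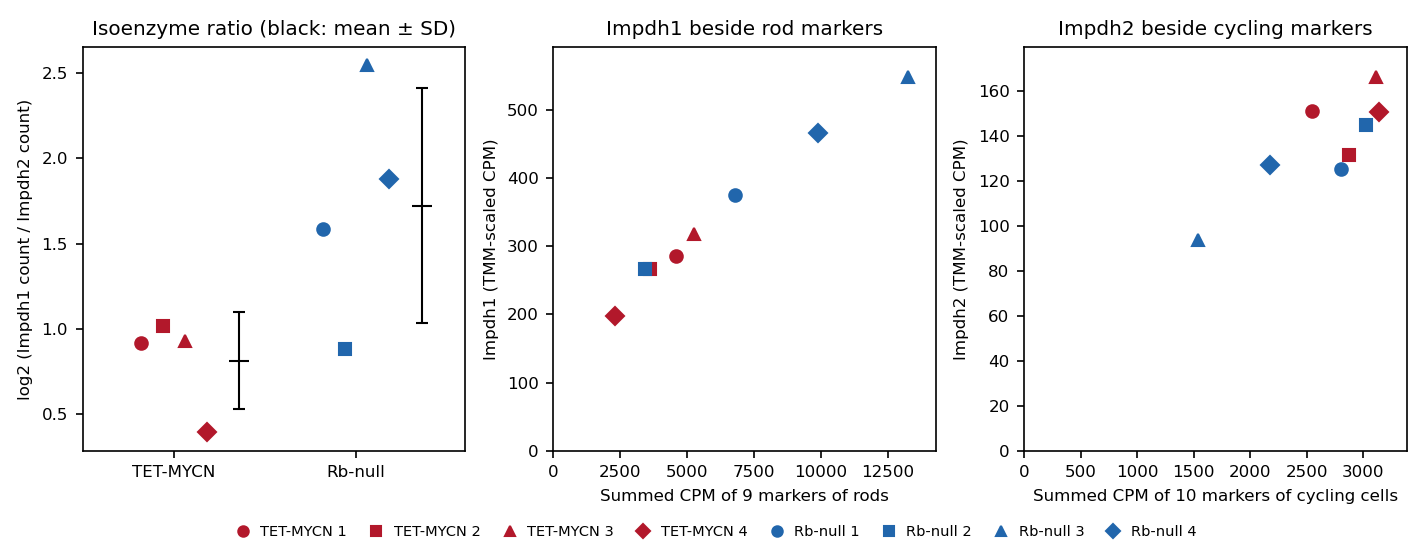
Left, log2 ratio of Impdh1 to Impdh2 reads in each library, with mean and SD in black (n = 4); middle, Impdh1 in CPM against the summed CPM of 9 rod markers; right, Impdh2 in CPM against the summed CPM of 10 cycling-cell markers, with 1 point per library (red TET-MYCN, blue Rb-null, shapes as library numbers). Rb-null 3 lies highest in the left and middle panels and lowest in the right one, and Rb-null 2 lies among the TET-MYCN libraries in all of them.

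Rod transcripts moved with Impdh1 from library to library. The summed level of the 9 rod markers was 4583, 3602, 5264 and 2287 CPM across TET-MYCN libraries 1 to 4, against 6772, 3418, 13250.3 and 9890.2 CPM in Rb-null libraries 1 to 4. The 3 libraries highest in rod markers, Rb-null 3, 4 and 1, were highest in Impdh1 in the same order, and TET-MYCN 4 was lowest in both. Their log2 fold changes were negative for all 9 (median -1.23), 0 passed the test, and none was at 0 in any library. Other marker lists were lower as well. All 5 bipolar cell markers were negative (median -1.16), with a summed level of 279, 268, 192 and 171 CPM across TET-MYCN libraries 1 to 4, against 364, 213, 599 and 572 CPM in Rb-null libraries 1 to 4. As with Impdh1, Rb-null 3, 4 and 1 were the highest and TET-MYCN 4 the lowest. All 5 ganglion cell markers were negative (median -0.65), with a summed level of 185 to 242 CPM in the TET-MYCN libraries and 181 to 389 CPM in the Rb-null libraries. Of 7 Mueller glia markers 6 were negative (median -0.47), with a summed level of 3615 to 5170 CPM in the TET-MYCN libraries and 4654 to 6332 CPM in the Rb-null libraries. No marker of these lists passed the test or was at 0 in all libraries. The part of these cell types in the Impdh1 value was not tested.

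By the likeness of log2 CPM over the 8 libraries, among 12338 other genes with a mean of at least 5 CPM, the genes nearest to Impdh1 were Tulp1, Rom1, Pip4k2c, Slc17a7 and Ubxn11, with Pearson's r of 0.991 to 0.995 (8 libraries of both groups; a description with no test). Tulp1 and Rom1 code for photoreceptor proteins, Rom1 being one of the rod markers, and Slc17a7 codes for a vesicular glutamate transporter of photoreceptors and bipolar cells. Rom1 stood at 265 to 590.3 CPM in the TET-MYCN libraries and 393 to 1093 CPM in the Rb-null libraries. The genes nearest to Impdh2 were Pold2, Nsg1, Kdelc1, Mad2l1 and Cdca7, with Pearson's r of 0.974 to 0.988 on the same terms. Pold2 codes for a subunit of DNA polymerase delta and Mad2l1 for a spindle checkpoint protein. Mad2l1 stood at 56.5 to 74.9 CPM in the TET-MYCN libraries and 31.5 to 55.1 CPM in the Rb-null libraries. Groups overlapped for Pold2, Nsg1, Kdelc1 and Cdca7. Pold2 had 87.2 to 109.8 CPM in the TET-MYCN libraries and 61.9 to 97.6 CPM in the Rb-null libraries. For Nsg1 the ranges were 159.8 to 181.2 CPM and 136.9 to 169.6 CPM in the same order. Within a library all genes share 1 tissue makeup, and libraries differed in rod and lens marker levels, so likeness says nothing of shared control.

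The lists of neighbouring pathways were set beside the members, and in each of them 0 genes passed the test in either direction. Of 9 genes of PRPP supply, from the pentose phosphate pathway and the PRPP synthetase-associated proteins, 6 were positive (median 0.05 on the log2 scale). Smallest p-values there went with Pgls, a lactonase of the pentose phosphate pathway (0.51 ± 0.16, adjusted p = 0.202, edgeR), and Pgd, its next dehydrogenase (0.11 ± 0.08, adjusted p = 0.563, edgeR). Of 10 genes of the adenylate and guanylate branches beyond IMP, 8 were positive, with a median of 0.24. Nme2 and Nme1, nucleoside diphosphate kinases and close paralogs whose reads may not be fully separated, had 0.72 ± 0.20 and 0.48 ± 0.15 (adjusted p = 0.171 and 0.194, edgeR).

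Nme2 stood at 119, 85.2, 125 and 159 CPM across TET-MYCN libraries 1 to 4, against 74.9, 84.6, 53.3 and 83.98 CPM in Rb-null libraries 1 to 4, with TET-MYCN 2 just above Rb-null 2. Gmps, which turns the product of the IMP dehydrogenases into GMP, had a log2 difference of 0.25 ± 0.13, and Guk1, the guanylate kinase, had -0.46 ± 0.24 (adjusted p = 0.379 and 0.373, edgeR); the pair was chosen after its values were seen. Of 14 salvage and breakdown genes 7 were positive, with a median of 0.01. Adk, the adenosine kinase that recovers AMP from adenosine, stood at 51.9, 41.8, 48.0 and 50.6 CPM across TET-MYCN libraries 1 to 4, against 32.8, 32.8, 30.9 and 35.7 CPM in Rb-null libraries 1 to 4. Its groups did not overlap, and its log2 fold change of 0.54 ± 0.10 did not pass (adjusted p = 0.119, edgeR). Aprt, which salvages adenine with PRPP, had 0.52 ± 0.17 (adjusted p = 0.217, edgeR).

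Of 10 genes of formyl and glycine supply, which provide carbon units to the ring, 8 were positive, with a median of 0.22. Mthfd1l, which makes formate in mitochondria, stood at 37.9, 27.9, 24.5 and 36.8 CPM across TET-MYCN libraries 1 to 4, against 21.3, 22.9, 23.1 and 23.96 CPM in Rb-null libraries 1 to 4. The groups did not overlap, by a small margin in TET-MYCN 3, and the log2 fold change was 0.48 ± 0.15 (adjusted p = 0.204, edgeR). Aldh1l1, a folate enzyme gene known as an astrocyte marker, stood at 2.59, 6.49, 6.97 and 3.22 CPM in the TET-MYCN libraries, against 8.30, 7.41, 11.1 and 10.4 CPM in the Rb-null libraries (-0.94 ± 0.31, adjusted p = 0.220, edgeR). It went the other way from most of its list. Of the 7 Mueller glia markers, 4 (Glul, Aqp4, Kcnj10 and Slc1a3) were also lower in all TET-MYCN libraries than in any Rb-null library. Such separation was seen for 3.29% of all genes. These 4 markers had log2 values of -1.26, -1.08, -0.97 and -0.35, and their lowest adjusted p was 0.0632 (edgeR). The margin was small for Slc1a3, with 345 CPM in TET-MYCN 2 and 348 CPM in Rb-null 4. Groups overlapped for Rlbp1, Dkk3 and Apoe, with log2 values of -0.47, -0.22 and 0.01. The part of glia in the Aldh1l1 value was not tested.

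All 11 genes of the photoreceptor cGMP cycle, which uses guanine nucleotides, were negative (median -1.08 on the log2 scale). Pde6b, the rod phosphodiesterase beta subunit, stood at 199, 80.3, 198 and 134 CPM across TET-MYCN libraries 1 to 4, against 454, 219, 843 and 586 CPM in Rb-null libraries 1 to 4 (-1.78 ± 0.40, adjusted p = 0.157, edgeR). Its groups did not overlap. Cngb1, a subunit of the cGMP-gated channel, had -1.06 ± 0.40 (adjusted p = 0.253, edgeR), with 42.7 to 112 CPM in the TET-MYCN libraries and 63.0 to 256 CPM in the Rb-null libraries. Pde6b and Cnga1 of this list are also rod markers. Summed over the 11 genes, the level was 1150.5, 701.3, 982 and 501 CPM across TET-MYCN libraries 1 to 4, against 1529, 674, 3351 and 2366 CPM in Rb-null libraries 1 to 4, highest in Rb-null 3, 4 and 1 as for the rod markers. Not every gene had that order: Guca1b, which codes for a guanylate cyclase activator, had 5.68, 12.7, 20.2 and 16.4 CPM across TET-MYCN libraries 1 to 4, against 32.2, 8.87, 19.2 and 17.9 CPM in Rb-null libraries 1 to 4.

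**Figure D5:**
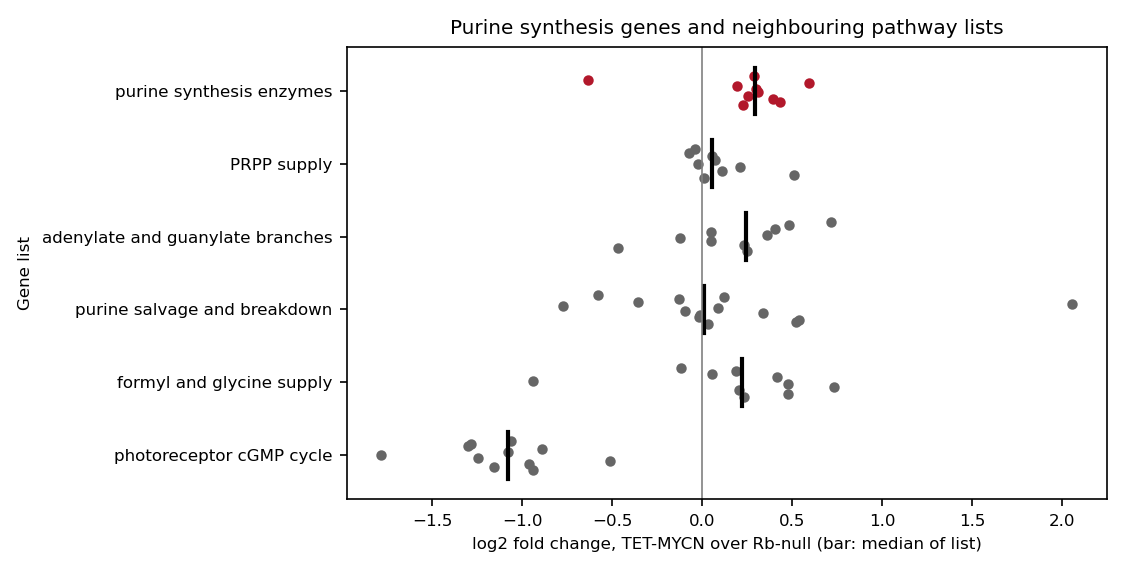
Log2 fold change of TET-MYCN over Rb-null for each tested gene of the purine synthesis list (red, top) and of 5 neighbouring pathway lists (grey), with each list's median as a black bar. The purine synthesis points cluster near their median of 0.29 with Impdh1 alone to the left, and the cGMP cycle points all lie left of 0, around -1.08.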

How the data were processed

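The files hold raw counts per gene symbol, 1 file per library, as the authors deposited them. Upstream, the submitters' processing notes name CASAVA 1.8.2 and TopHat2 2.0.8b, together with HTSeq 0.5.4p3 and the mouse build mm9. No source used here states the annotation, the options or whether strand was used, so reads of overlapping and antisense genes may not be separable. Per the labels' protocols, Trizol-extracted RNA was selected with oligo-dT and made into libraries with a NEBNext Ultra kit. Reads that HTSeq did not give to a single gene, 28.3% to 31.7% of a file, were left out; multiply aligned reads were 9.05% to 12.8%.

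The filter filterByExpr kept 15106 of 23284 genes, all 10 members among them, and the counts of the kept genes were then TMM-scaled. Groups were tested in edgeR 4.0.16 (R 4.3.3) by the quasi-likelihood F test, robust and with group as the only term, adjusted by Benjamini-Hochberg at 0.05 over all genes tested. Fold changes are TET-MYCN over Rb-null; the standard error is the log2 value's size divided by the root of F, and intervals are not adjusted. The Impdh1 to Impdh2 ratio was compared by a two-sided exact permutation test. A count of 3 was worth 0.130 to 0.202 CPM, counting error only. Alternatives were DESeq2 1.42.0, limma-voom (limma 3.58.1), other scalings, other filters, edgeR's newer quasi-likelihood method, the replicate number as a block and libraries left out. The procedure was tested on simulated data, and every pair of libraries in a group differed by more than sampling noise.

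Members, gene lists, named genes and alternatives were chosen with earlier results of these data known. A rod marker of the list as first drawn up is not reported here, and the summed level was taken over the other 9. Named were all members, the 2 genes with the smallest unadjusted p in each pathway list, the 5 genes most like Impdh1 and the 5 most like Impdh2, and the copies of Prps1. Outside this rule, Gmps, Guk1, Guca1b and single cell type markers were named with their values seen, and Mycn and Rb1 as a label check. Lengths are merged exons of protein-coding transcripts in GENCODE M21 (GRCm38), used for lengths only. Plots used Python 3.11.15 with matplotlib 3.10.9.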

Additional observations from a re-analysis of the deposited data

Results flagged for a closer look

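Among 22 groups of 4 values, the members in each group and the Impdh1 to Impdh2 ratio, 2 held a library far from the other 3 by Dixon's criterion, which chance passes in about 5% of groups. Paics stood at 222 CPM in Rb-null 3, below the other Rb-null libraries at 249 to 252 CPM. The log2 ratio of Impdh1 to Impdh2 stood at 0.39 in TET-MYCN 4, below the other TET-MYCN libraries at 0.92 to 1.02, and TET-MYCN 4 also had the lowest summed level of rod markers, 2287 CPM. The part of rods in that ratio was not tested. Without TET-MYCN 4 the difference in the log2 ratio was -0.77 (p = 0.143, exact permutation test), and without Rb-null 3 the log2 fold change of Paics was 0.26 (adjusted p = 0.522, edgeR).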

How the results depend on the processing

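All 180 values of the 10 members under 18 alternatives kept their direction, and 179 stayed on the same side of the threshold. The exception was Atic with DESeq2 (0.59, adjusted p = 0.0369), so that 1 member was called there and 0 under each other alternative. The count of members with a positive log2 fold change was 9 under every alternative run. The count of all genes called was 9 with edgeR; it was 17 without a filter on low counts, 530 with DESeq2 (323 higher and 207 lower), 0 with limma-voom (2262 had an unadjusted p under 0.05), 0 with both crystallin-rich libraries, Rb-null 2 and 3, left out (1306 had an unadjusted p under 0.05), and 41 without Rb-null 1 and TET-MYCN 3, the libraries with most multiply aligned reads. Leaving out 1 library gave 0 to 230 genes: 0 without Rb-null 2, Rb-null 3, Rb-null 4, TET-MYCN 1 or TET-MYCN 4, 1 without Rb-null 1, 132 without TET-MYCN 2 and 230 without TET-MYCN 3. The cause was not tested. The difference in the log2 ratio of Impdh1 to Impdh2 ran from -1.19 without Rb-null 2 to -0.63 without Rb-null 3, and it passed only without Rb-null 2, among the alternatives whose smallest possible p was under 0.05. Without both crystallin-rich libraries (p = 0.0667, exact permutation test) the groups did not overlap, but no lower p was possible; without the libraries with most multiply aligned reads (p = 0.3) the smallest possible was 0.1. The replicate number as a block gave 3 genes called and 0 members, and the ratio then had p = 0.25 (exact sign-flip test, smallest possible p 0.125). Libraries with the same number deviated in opposite directions or not at all (correlations of -0.04, -0.06, -0.12 and -0.29 across genes), so the numbers were not taken as pairs. Prps2, the member with the fewest reads (284 to 656 per library), carries the most counting error.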
